A study of Mus musculus with 24 samples.

Results

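The 10 protein-coding genes described here lie around Dnmt3l on mouse chromosome 10: Gatd3a, Rrp1, Pfkl, Pdxk, Cstb, Agpat3, Trappc10, Pwp2, Trpm2 and Icosl. They were chosen by name and position, as rows of the deposited mRNA table near Dnmt3l, with earlier results of these data known. Aire, which overlaps Dnmt3l, and Cfap410 and Lrrc3, which lie nearer to Dnmt3l than Rrp1, are not among them. The set makes up 10 of the 36096 genes in that table and 10 of the 76 within 1 Mb of Dnmt3l. Medial frontal cortex of C57BL/6J mice was taken at postnatal day 28. Dnmt3l males (OE-M) and Dnmt3l females (OE-F) carried the genotype Dnmt3l;Emx1-cre, from crossing a conditional Dnmt3l knock-in strain with Emx1-cre mice. Control males (CON-M) and control females (CON-F) carried Emx1-cre alone, so the Cre transgene was common to all 4 groups. Each group had 3 ribosomal RNA-depleted libraries. The question addressed here is whether RNA of the genes around the endogenous Dnmt3l locus differed between the genotypes.

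The Emx1 promoter drives Cre in the dorsal forebrain, in excitatory neurons and part of the glia, so other cells of the cortex keep the unrecombined allele. The labels do not give the genomic site of the knock-in construct. The labels do not say that the samples came from separate animals, so the p-values describe the spread between samples, in part perhaps a technical one. In bulk tissue, fewer cells of a type and less RNA per cell cannot be told apart.

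Dnmt3l encodes a partner protein without catalytic activity of its own for the Dnmt3 methyltransferases, which place methyl groups on CG dinucleotides, and it is known mainly from germ cells and the early embryo. Its neighbours share no pathway. They include a glycolytic enzyme (Pfkl), a vitamin B6 kinase (Pdxk), a cathepsin inhibitor (Cstb), nucleolar ribosome assembly factors (Rrp1, Pwp2), a vesicle tether subunit (Trappc10), a phospholipid acyltransferase (Agpat3), an ion channel (Trpm2), an immune ligand (Icosl) and a mitochondrial protein (Gatd3a). Their human counterparts lie together on the chromosome that is trisomic in Down syndrome.

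CG dinucleotides are among the sites on which the Dnmt3 enzymes act. Promoter sequences are therefore shown for the 3 members that fell with the smallest adjusted p and for the 2 that rose. Each runs 5′ to 3′ in the direction of transcription, from 250 bases before the RefSeq start to 50 after it (RefSeq, GRCm38.p6, minus strand for all 5), and capitals mark every CG dinucleotide.
Gatd3a, chr10:78169706-78170005: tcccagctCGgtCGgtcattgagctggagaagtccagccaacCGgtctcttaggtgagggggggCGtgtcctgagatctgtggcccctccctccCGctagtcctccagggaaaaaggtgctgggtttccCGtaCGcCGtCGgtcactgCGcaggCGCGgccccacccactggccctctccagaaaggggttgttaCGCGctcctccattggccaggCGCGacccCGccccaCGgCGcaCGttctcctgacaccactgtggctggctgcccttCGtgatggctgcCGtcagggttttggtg
Rrp1, chr10:78412994-78413293: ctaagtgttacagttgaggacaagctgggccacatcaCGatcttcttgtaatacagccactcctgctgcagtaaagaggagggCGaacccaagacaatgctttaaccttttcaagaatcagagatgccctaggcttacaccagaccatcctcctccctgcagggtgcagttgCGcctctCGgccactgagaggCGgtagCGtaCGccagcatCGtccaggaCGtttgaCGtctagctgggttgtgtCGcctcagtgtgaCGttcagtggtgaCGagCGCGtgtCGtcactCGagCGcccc
Pfkl, chr10:78009758-78010057: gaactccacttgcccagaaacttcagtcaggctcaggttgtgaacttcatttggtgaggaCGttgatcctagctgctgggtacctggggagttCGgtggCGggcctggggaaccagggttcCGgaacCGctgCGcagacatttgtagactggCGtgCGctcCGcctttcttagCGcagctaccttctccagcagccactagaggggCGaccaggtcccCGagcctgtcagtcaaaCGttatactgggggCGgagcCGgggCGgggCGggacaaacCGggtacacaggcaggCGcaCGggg
Agpat3, chr10:78351651-78351950: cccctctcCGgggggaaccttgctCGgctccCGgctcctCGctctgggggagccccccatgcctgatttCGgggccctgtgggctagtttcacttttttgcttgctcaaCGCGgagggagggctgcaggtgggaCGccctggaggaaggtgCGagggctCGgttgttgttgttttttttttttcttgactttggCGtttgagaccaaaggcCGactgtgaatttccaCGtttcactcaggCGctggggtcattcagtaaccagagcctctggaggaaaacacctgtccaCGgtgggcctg
Trpm2, chr10:77969823-77970122: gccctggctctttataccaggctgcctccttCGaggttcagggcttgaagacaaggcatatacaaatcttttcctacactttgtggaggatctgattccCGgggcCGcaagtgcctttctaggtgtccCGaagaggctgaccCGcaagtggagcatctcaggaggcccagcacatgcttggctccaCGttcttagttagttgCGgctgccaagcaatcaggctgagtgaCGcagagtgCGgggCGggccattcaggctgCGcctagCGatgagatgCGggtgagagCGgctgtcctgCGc

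RefSeq promoters were matched by symbol for 9 of the 10 members, all but Cstb. The 300-base window held 22 CG dinucleotides in Gatd3a, 18 in Rrp1, 20 in Pfkl, 15 in Agpat3 and 15 in Trpm2. The median over the 9 members was 22, against 7 over the 32841 promoters of the table. That table, also used for the shares below, was not limited to genes expressed in this tissue. All 10 members were expressed highly enough to be tested, and a comparison with expressed genes only was not made. The ratio of observed to expected CG, which corrects for base composition, had a median of 0.762 in the members and 0.384 in all promoters. It was above 0.6 in 7 of the 9 members, against 35.8% of all promoters. The other 2 were Trpm2 at 0.591 and Agpat3 at 0.579, just under that value and also the 2 members with higher RNA. Rrp1 had 0.766, Pfkl 0.695 and Gatd3a 0.682, so the 5 ratios lie close together. The windows of Agpat3 and Trpm2 lie inside the gene spans given below. They end at 78351950 and 77970122, where the spans end at 78352489 and 77970563. The Pfkl window ends nearer its gene end, at 78010057 against 78010083. Windows at the outer gene ends were not examined, so the lower ratios of Agpat3 and Trpm2 may depend on where the start was placed.

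Of 4 motifs searched on both strands in these windows, GGGCGG was present in 7 of the 9 members and in 35.7% of all promoters. TGACG was present in 5 members and 20.8% of promoters, CACGTG in 2 members and 7.15%, and CCAAT in 2 members and 37.4%. GGGCGG matched 3 times in Pfkl, once in Gatd3a and once in Trpm2, and was not found in the Rrp1 and Agpat3 windows. TGACG matched 4 times in Rrp1. These are matches of letters in 1 window per gene, and DNA methylation of these promoters was not analysed here.

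The libraries held 22144970 to 26842726 expected counts in Dnmt3l mice and 27074837 to 32100277 in controls. Levels are given as CPM, counts scaled to the library size after trimmed mean of M-values (TMM) adjustment, and as FPKM where genes are compared with each other. Markers of astrocytes, oligodendrocytes, their precursors, microglia and endothelial cells were higher in most Dnmt3l libraries: 32 of 38 tested markers of those 5 lists were called higher and 2 lower. OE-F 1 stood apart from the other 5 Dnmt3l libraries. Its summed astrocyte markers were 7406 CPM, against 12901 to 13654 CPM in the 3 OE-M libraries and 6600 to 7212 CPM in controls. CON-M 3, CON-F 1 and CON-F 2 held liver transcripts, 66.3, 78.1 and 85.5 CPM summed over 8 liver genes, against 0.170 to 1.60 CPM in the other 9 libraries. The part of these differences in the results below was not tested beyond leaving those libraries out.

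Dnmt3l itself (chr10:78041947-78063622, plus strand, GRCm38) had 27.0, 25.0 and 20.7 CPM in OE-M and 45.8, 24.0 and 25.7 CPM in OE-F, against counts of 1, 1 and 0 in CON-M and 0, 0 and 3 in CON-F. The Dnmt3l libraries all lay above the controls, and OE-F 1 was the highest. Of the Dnmt3l counts in Dnmt3l mice, 99.9% were assigned to 1 of its 8 transcripts, ENSMUST00000151242. Aire, a gene on the opposite strand that overlaps Dnmt3l by 1664 bp, was too low to be tested. The sources used here do not say whether counting was stranded.

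Averaged over sexes, 6 of the 10 members fell, 2 rose and 2 were not called (edgeR quasi-likelihood, Benjamini-Hochberg adjusted p below 0.05 over 15786 genes). Over all genes tested, 51.5% were called, 26.4% as lower and 25.2% as higher, beside 60% lower among the members. Of the other tested genes within 1 Mb, 20% were called lower. The members were chosen with earlier results of these data known, so no excess is read from their share. With library totals in place of TMM the members were called lower in 7 cases and higher in 1, and all genes in 5164 and 2834 cases, in place of 4160 and 3976. The median log2 change of the 10 members was −0.24, against 0.016 over all genes. Both medians depend on the scaling. They were −0.33 and −0.076 with library totals, and −0.19 and 0.064 with upper quartile scaling. All 10 members passed the filter on low values. Leaving out the 3 control libraries with liver transcripts left 3 members called lower (Gatd3a, Rrp1 and Pfkl) and 0 higher, and 1920 genes higher and 2439 lower overall. Leaving out only OE-F 1 gave 6 lower and 2 higher, and so did leaving out OE-F 1 together with those 3 controls, an alternative chosen after seeing the data.

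**Figure D1:**
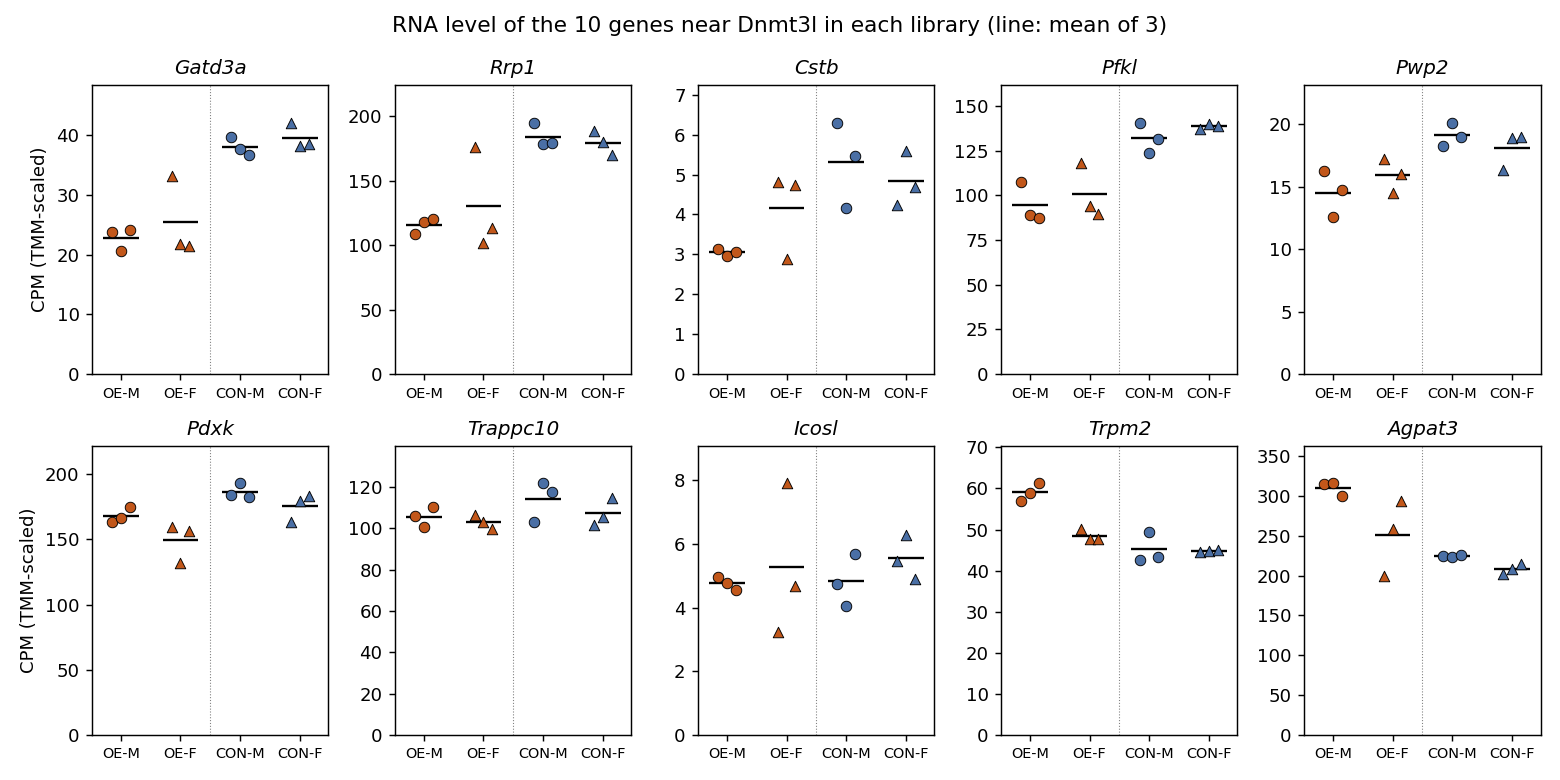
RNA level of each member in CPM (TMM-scaled, y axis from 0) in the 12 libraries, 3 per group, with Dnmt3l groups (OE-M, OE-F, orange) left of controls (CON-M, CON-F, blue), circles for males, triangles for females and a line at each group mean. Gatd3a and Pfkl are lower in all 6 Dnmt3l libraries than in any control, as are 6.83% of all tested genes. Agpat3 is higher in 5 of the Dnmt3l libraries. OE-F 1 (the leftmost orange triangle) is nearest the controls or among them for Gatd3a, Rrp1 and Pfkl and lowest of all for Agpat3.

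Gatd3a, which encodes a mitochondrial protein with a glutamine amidotransferase-like domain, showed the largest change of the set. It lies 98.4 kb beyond the end of Dnmt3l (ENSMUSG00000053329, chr10:78162066-78169782, minus strand). Its level was 23.8, 20.6 and 24.1 CPM in OE-M and 33.2, 21.7 and 21.4 CPM in OE-F, against 39.7, 37.7 and 36.7 CPM in CON-M and 42.1, 38.2 and 38.5 CPM in CON-F. All 6 Dnmt3l libraries lay below all 6 controls, and OE-F 1 was the nearest to them. Among all tested genes 6.83% were separated in this direction. The mean was 24.1 ± 4.63 CPM in Dnmt3l mice and 38.8 ± 1.904 CPM in controls (SD, n = 6 each). Gatd3a fell by 0.69 ± 0.10 on the log2 scale (SE, edgeR adjusted p = 0.000399), a level 37.8% lower. The absolute change was larger than that of 85.7% of tested genes. Without OE-F 1 the log2 change was −0.82 ± 0.06 (edgeR adjusted p = 4.93e-08), the largest on leaving out 1 library at a time (−0.82 to −0.63). Without the 3 control libraries with liver transcripts it was −0.70.

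Rrp1, a nucleolar protein known from yeast for processing the RNA of the large ribosomal subunit, lies 336.8 kb beyond Dnmt3l (ENSMUSG00000061032, chr10:78400384-78413043, minus strand). It had 109, 118 and 120.2 CPM in OE-M and 176, 102 and 113 CPM in OE-F, against 195, 178 and 179 CPM in CON-M and 189, 180.0 and 170.0 CPM in CON-F. The groups overlapped through OE-F 1 alone, which lay among the controls, while the other 5 Dnmt3l libraries were below every control. The share of all genes with such an overlap was not counted. Rrp1 fell by 0.56 ± 0.11 on the log2 scale (SE, edgeR adjusted p = 0.00133), and without OE-F 1 by 0.72 ± 0.05 (edgeR adjusted p = 2.38e-08). Leaving out 1 library at a time gave −0.72 to −0.49. Without the 3 control libraries with liver transcripts the log2 change was −0.56.

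Pwp2, which belongs to the UTP-B complex of the small subunit processome, lies next to Gatd3a on the same strand, 107.3 kb beyond Dnmt3l (ENSMUSG00000032834, chr10:78170909-78185149). Its level was 16.2, 12.5 and 14.8 CPM in OE-M and 17.2, 14.5 and 16.0 CPM in OE-F, against 18.2, 20.1 and 19.0 CPM in CON-M and 16.3, 18.9 and 19.0 CPM in CON-F. The female groups overlapped. Pwp2 fell by 0.29 ± 0.09 on the log2 scale (SE, edgeR adjusted p = 0.0128). Without the 3 control libraries with liver transcripts the log2 change was −0.35 ± 0.13 and was not called (edgeR adjusted p = 0.0597).

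Pfkl, the liver-type subunit of phosphofructokinase, an enzyme that controls the rate of glycolysis, is the nearest member before the Dnmt3l start, at 31.9 kb (ENSMUSG00000020277, chr10:77986947-78010083, minus strand). It had 107, 89.0 and 87.6 CPM in OE-M and 118, 94.3 and 89.8 CPM in OE-F, against 141, 124 and 132 CPM in CON-M and 137, 140.2 and 139 CPM in CON-F. All 6 Dnmt3l libraries lay below all 6 controls, as in 6.83% of all tested genes, with OE-F 1 again the highest of the 6. Pfkl fell by 0.47 ± 0.08 on the log2 scale (SE, edgeR adjusted p = 0.000624), a level 27.9% lower.

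Pdxk, pyridoxal kinase, which makes the active cofactor form of vitamin B6, is the farthest member, 373.1 kb beyond Dnmt3l (ENSMUSG00000032788, chr10:78436744-78464975, minus strand). Its level was 163, 166 and 175 CPM in OE-M and 159.6, 132 and 156 CPM in OE-F, against 184, 193 and 183 CPM in CON-M and 163, 179 and 184 CPM in CON-F. CON-F 1 lay among the Dnmt3l libraries, and OE-F 2 was the lowest of all. Pdxk fell by 0.19 ± 0.06 on the log2 scale (SE, edgeR adjusted p = 0.0228), a smaller change than that of most tested genes, 29.9% of which changed less. The call was lost at nearly the same log2 change without OE-M 1, at −0.18 (edgeR adjusted p = 0.0545), and without CON-F 2, at −0.18 (0.0518), and at a larger one, −0.25, without the 3 control libraries with liver transcripts (0.0700). It was also lost with upper quartile scaling, at −0.14 (edgeR adjusted p = 0.0578), and with the largest transcript only, at −0.14 (0.0936).

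Cstb, cystatin B, an inhibitor of cathepsins whose loss causes a myoclonic epilepsy in humans, lies 362.0 kb beyond Dnmt3l (ENSMUSG00000005054, chr10:78425669-78427622, plus strand). It was among the lowest members, with 3.13, 2.96 and 3.05 CPM in OE-M and 4.82, 2.89 and 4.75 CPM in OE-F, against 6.30, 4.16 and 5.47 CPM in CON-M and 4.22, 5.59 and 4.69 CPM in CON-F. OE-F 1 and OE-F 3 lay within the control range. Cstb fell by 0.51 ± 0.16 on the log2 scale (SE, edgeR adjusted p = 0.0176). Its counts were 64 to 124 per Dnmt3l library and 127 to 182 per control library, and the call was lost without CON-M 1, at −0.44 (edgeR adjusted p = 0.0505), and without the 3 control libraries with liver transcripts, at −0.50 (0.116).

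Agpat3, an acyltransferase of phospholipid synthesis, was the most abundant member in CPM and rose. It lies 205.6 kb beyond Dnmt3l (ENSMUSG00000001211, chr10:78269178-78352489, minus strand). It had 315, 316 and 299.9 CPM in OE-M and 199.6, 258 and 294 CPM in OE-F, against 224, 224 and 226 CPM in CON-M and 202, 208 and 215 CPM in CON-F. Only OE-F 1, the lowest of all 12 libraries, overlapped the controls, and the share of all genes with such an overlap was not counted. The log2 change was 0.37 ± 0.08 (SE, edgeR adjusted p = 0.00239), and 0.32 ± 0.12 without the 3 control libraries with liver transcripts, where it was not called (edgeR adjusted p = 0.0729). A predicted transcript counted as AC160405.1 overlaps Agpat3 on the same strand over 19586 bp and had 0.199 CPM in Dnmt3l mice, so it could take few of its reads.

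Trpm2, a calcium-permeable channel opened by ADP-ribose and oxidative stress, lies 71.4 kb before the Dnmt3l start (ENSMUSG00000009292, chr10:77907722-77970563, minus strand). Its level was 57.0, 58.9 and 61.2 CPM in OE-M and 50.1, 47.8 and 47.7 CPM in OE-F, against 42.7, 49.4 and 43.4 CPM in CON-M and 44.5, 44.8 and 45.0 CPM in CON-F. CON-M 2 was the control that overlapped with OE-F. Trpm2 rose by 0.25 ± 0.06 on the log2 scale (SE, edgeR adjusted p = 0.00403). It was not called without the 3 control libraries with liver transcripts, at 0.21 (edgeR adjusted p = 0.118), with library totals, at 0.16 (0.0584), or when only its largest transcript was counted, at 0.026 (0.864). Limma did not call it on log2(FPKM + 0.1), at 0.21 (adjusted p = 0.0964), or on log2(FPKM + 1), at 0.20 (0.0961).

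Trappc10, a subunit of the TRAPP complexes that tether vesicles in the secretory pathway, was not called. It had 106, 100.4 and 110.3 CPM in OE-M and 106, 103 and 99.4 CPM in OE-F, against 103, 122 and 117 CPM in CON-M and 102, 105 and 115 CPM in CON-F. Its log2 change was −0.08 ± 0.06 (SE, edgeR adjusted p = 0.269). It was called lower with library totals in place of TMM, at −0.18 (edgeR adjusted p = 0.0462), and by limma on log2(FPKM + 0.1), at −0.28 (0.0299), and on log2(FPKM + 1), at −0.27 (0.0293).

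Icosl, the B7-family ligand of the T cell receptor ICOS, is the member closest to Dnmt3l, 5.7 kb beyond its end on the same strand (ENSMUSG00000000732, chr10:78069302-78083913). It had 4.97, 4.77 and 4.56 CPM in OE-M and 3.22, 7.90 and 4.66 CPM in OE-F, against 4.74, 4.06 and 5.68 CPM in CON-M and 5.46, 6.28 and 4.89 CPM in CON-F. The lowest and the highest of the 12 values were both in OE-F. The log2 change was −0.05 ± 0.19 (SE, edgeR adjusted p = 0.844), and its sign depended on the scaling, the libraries and the transcripts counted.

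Per length, the members spanned a wide range of abundance, from Rrp1 and Agpat3 to Icosl. Rrp1 was at 93.6 ± 16.9 FPKM in Dnmt3l mice and 129.95 ± 11.6 FPKM in controls, and Agpat3 at 106 ± 15.5 FPKM and 83.7 ± 5.84 FPKM in the same groups (SD, n = 6 each). Pfkl was at 37.7 ± 6.08 FPKM in Dnmt3l mice and 52.8 ± 5.30 FPKM in controls, and Gatd3a at 21.0 ± 4.45 FPKM and 35.7 ± 1.20 FPKM. Icosl was the lowest member, at 2.28 ± 0.754 FPKM in Dnmt3l mice and 2.57 ± 0.442 FPKM in controls. Rrp1 was thus below Agpat3 in Dnmt3l mice and above it in controls, and in Dnmt3l mice the difference was smaller than the SD of either gene.

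**Figure D2:**
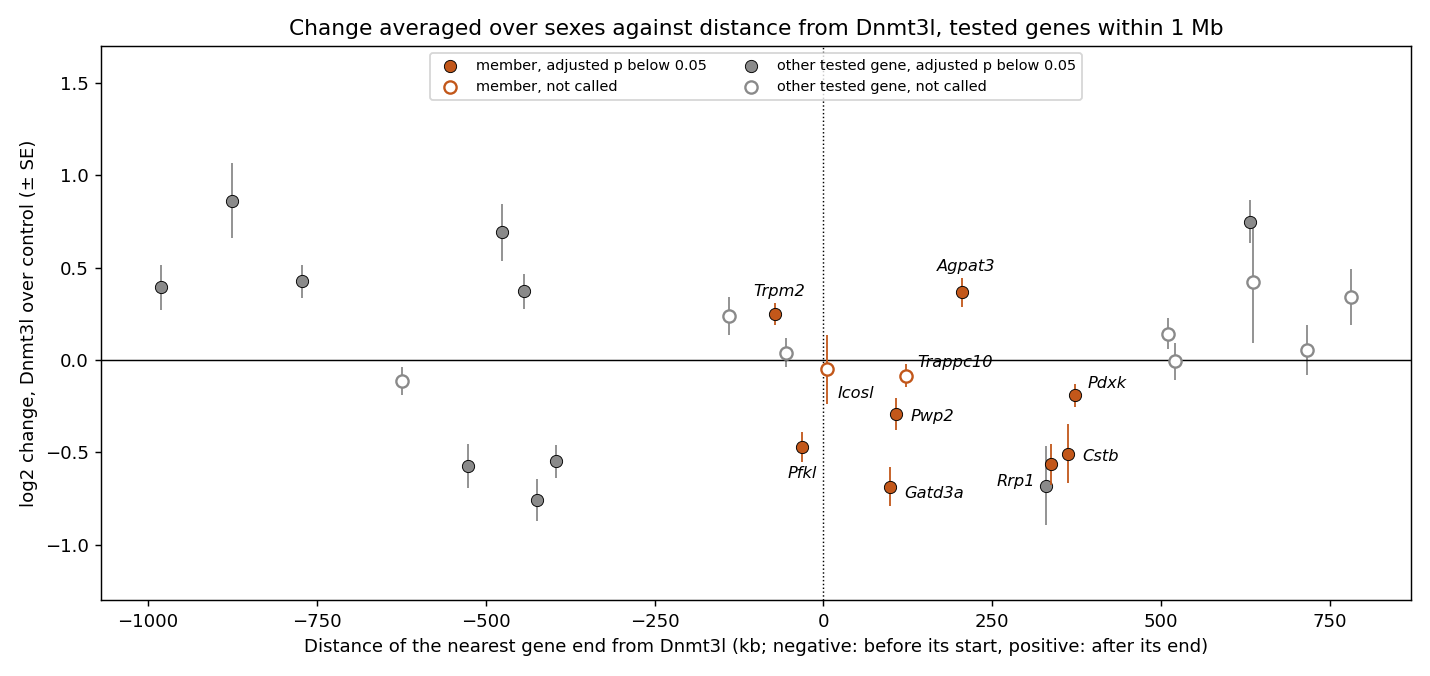
Log2 change, Dnmt3l over control, averaged over sexes, with its SE (y axis) against distance from Dnmt3l in kb (x axis), for the 10 members (orange) and the 18 other tested genes within 1 Mb whose SE was below 0.5 (grey), filled where called. Members that fell lie on both sides of Dnmt3l, at 31.9 kb before its start and at 98.4 to 373.1 kb beyond its end, while Icosl at 5.7 kb is close to 0 and Agpat3 and Trpm2 lie above 0.

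The members' changes did not run in order of distance from Dnmt3l, as the plot against distance shows. The nearest member, Icosl, was not called. Trpm2, which rose, is the outermost member before Dnmt3l. Between it and Pfkl lies Cfap410, at a log2 change of 0.04 (edgeR adjusted p = 0.697). On the other side Agpat3, which also rose, lies between Trappc10 and Rrp1. Within 250 kb of Dnmt3l 10 genes were tested, of which 2 were called higher and 3 lower, and the median log2 change was −0.005. From 250 to 500 kb 9 were tested, 2 higher and 6 lower, with a median of −0.51. From 500 kb to 1 Mb the counts were 4 higher and 1 lower of 11, with a median of 0.34. Between 1 and 5 Mb 179 genes were tested, 43 higher and 41 lower, and over chromosome 10 there were 211 higher and 197 lower of 796, or 51.3% called. The share of tested genes called lower ran from 22.3% to 33.8% over the chromosomes.

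Among the 20 other tested genes within 1 Mb, 6 rose and 4 fell, 50% in all. Those that fell were Sumo3, a ubiquitin-like modifier (log2 change −0.76), Gm10146 (−0.68), Fam207a (−0.57) and Ube2g2, a ubiquitin-conjugating enzyme (−0.55). Those that rose were Col18a1, a basement membrane collagen (0.86), Gm47476 (0.75), Itgb2, a leukocyte integrin subunit (0.69), Pofut2 (0.43), Slc19a1, a folate carrier (0.39), and Pttg1ip (0.37), with edgeR adjusted p from 0.000364 to 0.0177 over the 10. Sumo3 was at 39.5 ± 7.14 CPM in Dnmt3l mice and 66.8 ± 5.03 CPM in controls (SD, n = 6 each), a change larger than that of Gatd3a, at 423.6 kb before the Dnmt3l start.

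In males, 5 members fell and 2 rose, where 43.1% of all genes were called, 22.7% as lower and 20.4% as higher. Cstb had the largest male change, −0.80 on the log2 scale (edgeR adjusted p = 0.0135), followed by Gatd3a at −0.73 (0.00260), Rrp1 at −0.67 (0.00535), Pfkl at −0.48 (0.00544) and Pwp2 at −0.40 (0.0184). Agpat3 rose by 0.47 (edgeR adjusted p = 0.00622) and Trpm2 by 0.39 (0.00377). Without the 3 control libraries with liver transcripts, of which CON-M 3 is male, 3 members were called lower in males and 0 higher. The male call of Pwp2 was lost without OE-M 2, at −0.30 (edgeR adjusted p = 0.0846), or CON-M 2, at −0.39 (0.0540), and that of Cstb without CON-M 1, at −0.66 (0.0621).

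In females, Gatd3a fell by 0.64 (edgeR adjusted p = 0.0341) and Pfkl by 0.46 (0.0362), and the other 8 members were not called, where 9.1% of all genes were called, 4.38% as lower and 4.73% as higher. Rrp1 was at −0.46 (edgeR adjusted p = 0.0696) and Agpat3 at 0.27 (0.121). These calls did not hold when single libraries other than OE-F 1 were left out, although the log2 changes stayed close. Both were lost, with Gatd3a at −0.66 to −0.53 and Pfkl at −0.47 to −0.39 (edgeR adjusted p 0.0521 to 0.134), on leaving out any 1 of 10 of the 12 libraries (OE-M 1, OE-M 2, OE-F 2, OE-F 3 or any control), and without OE-M 3 only Gatd3a was called. The lowest gene counts were those without CON-F 2, 2 higher and 5 lower. Without OE-F 1, in contrast, 4 members were called lower, Gatd3a at −0.89, Rrp1 at −0.75, Pfkl at −0.60 and Pdxk at −0.30, and 1 higher, Agpat3 at 0.39 (edgeR adjusted p 3.32e-06 to 0.00662), with 3448 genes higher and 3995 lower overall. Without the 3 control libraries with liver transcripts 1 CON-F library is left, which the fit assumes to vary like the other groups. Then 0 members and 2 genes were called in females, with Gatd3a at −0.61 and Pfkl at −0.48 (edgeR adjusted p = 0.407 for both).

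The difference between the male and the female change was called for 0 of 15786 genes, or 0.0%, by edgeR, with 1120 genes and 1 member at an unadjusted p below 0.05. That member was Trpm2, whose change was 0.27 ± 0.12 larger in males (SE, edgeR adjusted p = 0.679). DESeq2 called 3 genes higher and 2 lower, and no member, and edgeR without OE-F 1 called 2 higher and 24 lower, again with no member. Between control females and control males 4 genes were called, 0.0253% of those tested, and no member was among them.

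**Figure D3:**
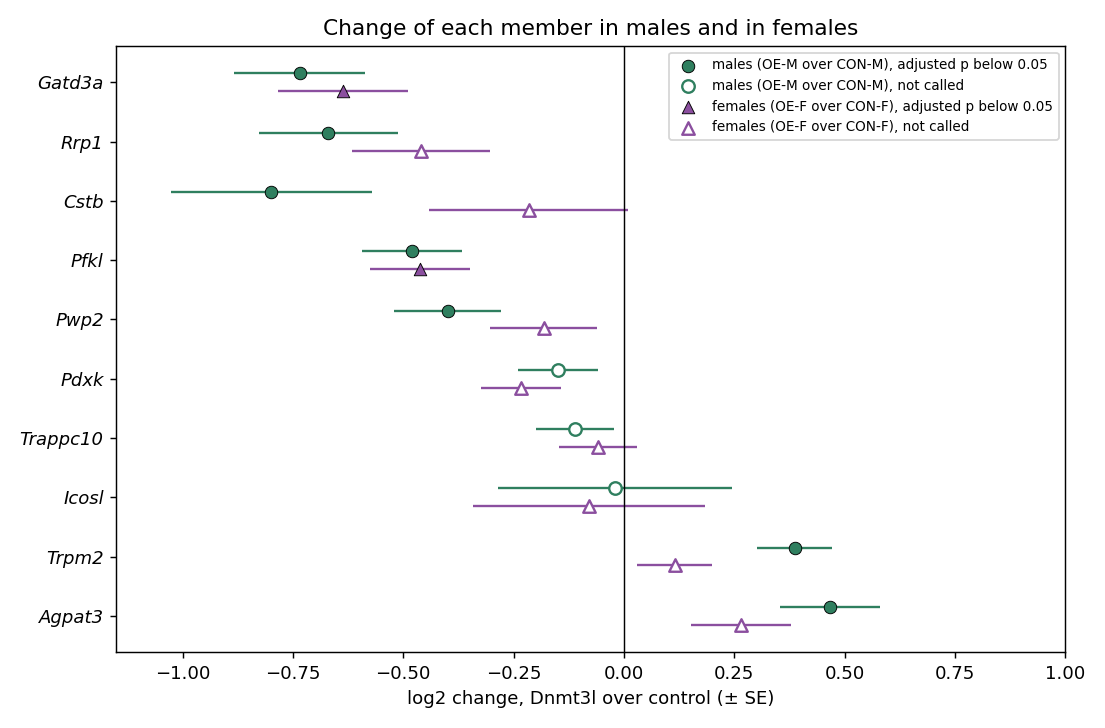
Log2 change of each member, Dnmt3l over control, with its SE (x axis) in males (green circles, OE-M over CON-M) and in females (purple triangles, OE-F over CON-F), filled where the edgeR adjusted p was below 0.05, with members from top to bottom in order of their change averaged over sexes. Gatd3a and Pfkl are filled in both sexes, and every member has the same sign in both.

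Each library was also set against the mean of the 3 controls of its sex. The median over the 10 members was −0.21, −0.37 and −0.23 in OE-M and −0.064, −0.36 and −0.16 in OE-F, against −0.029 to 0.0094 in controls, where it lies near 0 by construction. OE-F 1 was the Dnmt3l library nearest to 0, and it had the most Dnmt3l RNA. A relation between these was not tested. In OE-F 1 Gatd3a was at −0.25 and Rrp1 at −0.02 on this scale, against −0.87 to −0.64 for Gatd3a and −0.81 to −0.61 for Rrp1 in the other 5 Dnmt3l libraries.

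The genes whose levels over the 12 libraries followed those of the strongest members most closely are given here with their chromosomes. For Gatd3a they were Bex1 on chromosome X, Ndufv1 on chromosome 19 and Grsf1 on chromosome 5, with Pearson's r of 0.993, 0.991 and 0.990 on log2 CPM. For Rrp1 they were Eif4b on chromosome 15 (0.995), 5730409E04Rik on chromosome 4 (0.992) and Rab1a on chromosome 11 (0.992). These are descriptions over 12 libraries of both genotypes, which share their depth and the shift of OE-F 1 toward the controls. Chromosome 10 holds 797 of the 15786 tested genes, so a place on another chromosome carries little information.

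Each member was then read beside the other genes of its pathway, complex or family. Of 16 other glycolytic genes 13 fell and 2 rose, with a median log2 change of −0.61, so that Pfkl at −0.47 changed less than the list's median. Tpi1, triose phosphate isomerase, was at 137 ± 59.5 CPM in Dnmt3l mice and 264 ± 13.4 CPM in controls, a log2 change of −0.97 ± 0.17 (SE, edgeR adjusted p = 0.000673), and Aldoa, an aldolase, was at −0.94 ± 0.14 (0.000391). Over all genes the median was 0.016 with the TMM scaling used for these values. The summed glycolytic level was 5396 to 5593 CPM in OE-M and 7811 CPM in OE-F 1, against 8205 to 8834 CPM in controls. Of 3 other genes of vitamin B6 metabolism given here 1 fell, 1 rose and 1 was not called, beside Pdxk at −0.19. Pdxp, a phosphatase of the cofactor, was at −0.57 ± 0.12 (edgeR adjusted p = 0.00194), Alpl, an alkaline phosphatase, at 0.41 ± 0.14 (0.0259) and Plpbp, which binds the cofactor, at −0.05 ± 0.06 (0.530).

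The counts of these lists stand against 26.4% of all genes called lower and 25.2% called higher, and nothing particular to a list was tested. Of 5 other UTP-B proteins 2 fell and none rose (median −0.22), Utp6 at −0.36 ± 0.08 (edgeR adjusted p = 0.00375) and Wdr36 at −0.22 ± 0.08 (0.0257), beside Pwp2 at −0.29. Of 9 other early large subunit factors 5 fell and none rose (median −0.32), led by Brix1 at −0.63 ± 0.15 (edgeR adjusted p = 0.00443) and Surf6 at −0.49 ± 0.12 (0.00407), beside Rrp1 at −0.56. Rrp1b, the paralog of Rrp1, was at 0.16 ± 0.12 and was not called (edgeR adjusted p = 0.260). Of 13 other TRAPP subunits 10 fell and none rose (median −0.40), with Trappc2 at −0.73 ± 0.16 (edgeR adjusted p = 0.00262) and Trappc2l at −0.72 ± 0.14 (0.00143), while Trappc10 was at −0.08.

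Agpat3 and Trpm2 also stood beside family members with higher RNA. Of 9 other acylglycerophosphate acyltransferases 7 rose and none fell (median 0.39), among them Lpcat3 at 0.62 ± 0.11 (edgeR adjusted p = 0.000733) and Lpcat2 at 0.54 ± 0.15 (0.00917). Of 4 tested TRPM channels 3 rose, led by Trpm4 at 0.46 ± 0.11 (edgeR adjusted p = 0.00318) and Trpm3 at 0.37 ± 0.13 (0.0278). Cstb, which fell, was set against a list that mostly rose: of 9 cathepsins and other cystatins 6 rose and 1 fell (median 0.39). The 1 that fell was the cystatin Cst6, at −0.66 ± 0.22 (edgeR adjusted p = 0.0260). Cst3, another cystatin, was at 0.65 ± 0.10 (0.000377). Ctsh, a lysosomal cathepsin, was at 0.89 ± 0.17 (edgeR adjusted p = 0.000983) and Ctss, a cathepsin of microglia, at 0.69 ± 0.10 (0.000364). Of 2 tested B7 genes Cd86 rose by 0.92 ± 0.23 (edgeR adjusted p = 0.00463).

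Markers of cell types moved with these lists. Of 8 microglial markers 7 were called higher and none lower, and their sum was 461 to 475 CPM in OE-M, 249 to 430.4 CPM in OE-F and 221 to 251 CPM in controls. Of 10 excitatory neuron markers 5 were called lower and 1 higher, with sums of 1985 to 2355 CPM in OE-M, 1887 to 2125 CPM in OE-F and 1815 to 2158 CPM in controls. Of 8 interneuron markers 5 were called lower and 2 higher, and their sums, 549 to 616 CPM in OE-M and 493 to 575 CPM in OE-F, all lay below the 624 to 716 CPM of controls. Their part in the change of any member was not tested.

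**Figure D4:**
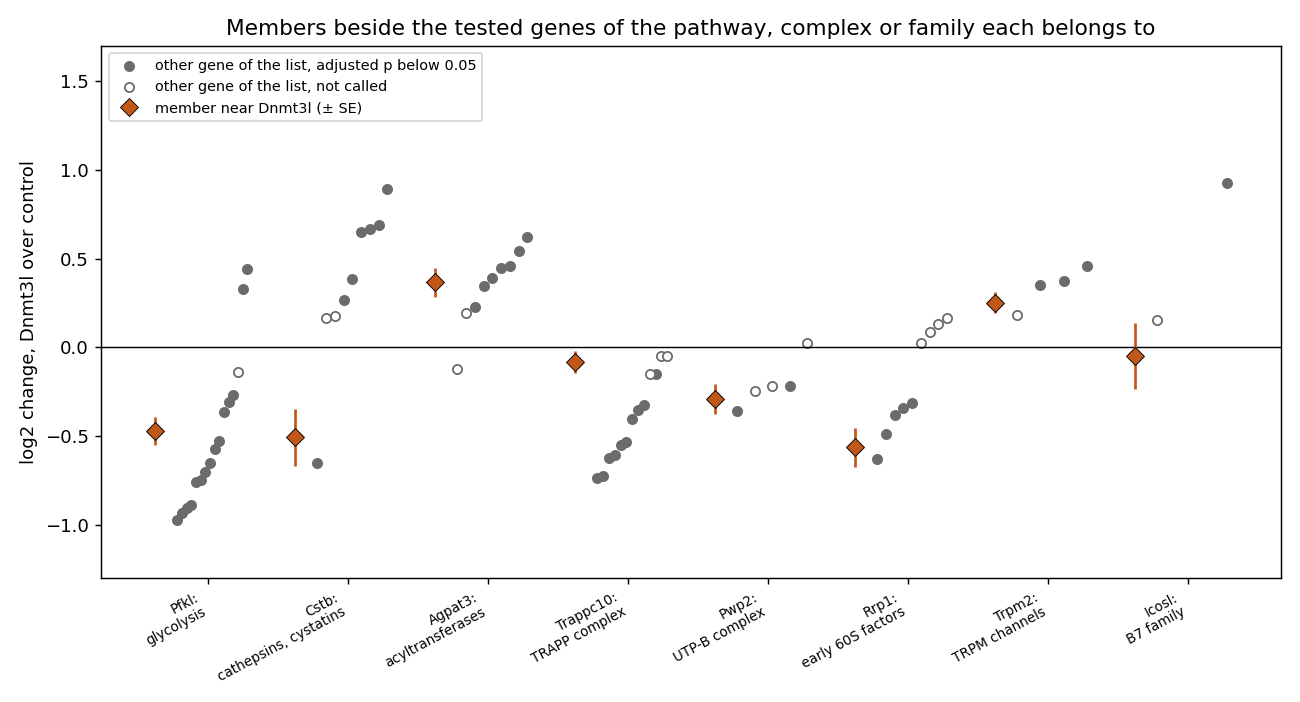
Log2 change, Dnmt3l over control, averaged over sexes (y axis) of 8 members (orange diamond, ± SE; x axis) left of the other tested genes of its pathway, complex or family (grey, in order of their change, filled where the edgeR adjusted p was below 0.05). All of these members but Icosl lie within the range of their lists, with Cstb at −0.51 below its list's median of 0.39. Icosl lies below the tested genes of its list.

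At the level of transcripts, 46 of the 57 annotated transcripts of the 10 members were tested, 7 were called lower and 1 higher, where 14.0% of 54587 tested transcripts were called, 9.19% as lower and 4.78% as higher. The 7 were the main transcripts of Gatd3a, Rrp1, Pfkl, Pdxk, Cstb, Pwp2 and Trappc10, 1 each. The fit of all transcripts was scaled on its own and placed the main transcripts of these 7 members lower than their genes. Pwp2, which has a single transcript and so the same counts in both, was at −0.42 there and at −0.29 as a gene. In a fit with only the largest transcript of each gene, Pdxk at −0.14 (edgeR adjusted p = 0.0936), Pwp2 at −0.24 (0.0545) and Trappc10 at −0.09 (0.295) were not called, and the other 4 were. That of Gatd3a, ENSMUST00000001242, was at 21.4 ± 5.55 CPM in Dnmt3l mice and 38.9 ± 1.56 CPM in controls (SD, n = 6 each), a log2 change of −0.87 ± 0.13 (SE, edgeR adjusted p = 0.00588). It took 91.7% of the gene's counts in Dnmt3l mice and 95.6% in controls. ENSMUST00000062678 of Rrp1 changed by −0.75 ± 0.15 (edgeR adjusted p = 0.0102) with 89.3% of the counts in Dnmt3l mice and 93.4% in controls, and ENSMUST00000020522 of Pfkl by −0.65 ± 0.10 (0.00580) with 91.5% and 94.6% in the same order. The share of the main transcript was thus lower in Dnmt3l mice for these 3 genes, a difference that was not tested.

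For Trappc10, at −0.08 as a gene and −0.09 by its largest transcript only, neither called, the main transcript ENSMUST00000000384 was at 85.0 ± 6.86 CPM in Dnmt3l mice and 103 ± 8.79 CPM in controls in the fit of all transcripts, a log2 change of −0.27 ± 0.08 (SE, edgeR adjusted p = 0.0397) that includes the lower placing of that fit. A second one, ENSMUST00000218124, was at 12.6 ± 2.47 CPM in Dnmt3l mice and 9.48 ± 1.03 CPM in controls, a log2 change of 0.41 ± 0.14 that was not called (edgeR adjusted p = 0.0895). The transcript called higher was a short one of Agpat3, ENSMUST00000219907, at 2.46 ± 0.396 CPM in Dnmt3l mice and 0.731 ± 0.435 CPM in controls (log2 change 1.76 ± 0.52, edgeR adjusted p = 0.0462). It held 0.935% of the gene's counts in Dnmt3l mice and 0.317% in controls. Leaving out 1 library at a time gave 0 to 3 member transcripts called higher and 3 to 8 lower, with 0 higher in 9 of the 12 cases. Values for single transcripts rest on how the authors' estimate divided shared reads.

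No long non-coding transcript or circular RNA in the deposited tables was named for a member. Of 11 long non-coding transcripts within 1 Mb of Dnmt3l 7 were tested and 0 were called by edgeR, where 0.494% of 12752 were called, 0.298% as higher and 0.196% as lower. The most abundant was named for Slc1a6 (39.5 ± 7.78 CPM in Dnmt3l mice and 49.6 ± 7.77 CPM in controls, log2 change −0.32, edgeR adjusted p = 0.522). The 1 circular RNA tested in the window, of Ube2g2, had scores of 0 to 34 in Dnmt3l libraries and 0 to 75 in controls (limma adjusted p = 0.968), where 0.251% of 1989 were called.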

How the data were processed

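RNA of medial frontal cortex was measured in 12 ribosomal RNA-depleted libraries, 3 in each of 4 groups, and the small RNA libraries were not used here. The submitters' processing notes list HISAT2 2.0.1, HTSeq 0.6.1, cutadapt 1.9.1 and the GRCm38 build without saying what each did, and the program that counted each kind of RNA is not stated there. For 119414 mRNA transcripts and 23698 long non-coding transcripts the authors deposited expected counts and, per the file headers, FPKM, an abundance scaled by length and library size. For circular RNAs the authors deposited a score, which the values show to be reads scaled per library and cut to whole numbers.

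Expected counts were summed per gene ID and rounded, as the chosen design named them. The 1774 transcripts with no gene ID held 0.533% to 0.601% of a library's counts and were left out. Genes were tested if at least 3 of 12 libraries reached 0.5 FPKM (0.1 FPKM for long non-coding transcripts). Tests were edgeR 4.0.16 quasi-likelihood with TMM on 4 group means of all 12 libraries, two-sided, adjusted by Benjamini-Hochberg over everything tested. Circular RNAs above 0 in at least 6 libraries were tested with limma 3.58.1 on log2(score + 5). CPM are counts scaled to the TMM-adjusted library, and errors are SD for levels and SE for log2 changes. Among the members, counts were lowest for Cstb and Icosl. The fit was run on simulated data with known changes, in far fewer genes than were called here and with no outlying library. That run does not cover the conditions of these data.

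The members, partner lists and markers were chosen with earlier results of these data known. Named genes are Dnmt3l, the members, the called genes within 1 Mb, the 2 called genes of largest absolute change per partner list, and the 3 genes most correlated with Gatd3a and with Rrp1. Aldoa was read at the gene ID with the most counts. Rrp1b, Plpbp, Lrrc3, Cst3, Cst6, Slc17a7 and Slc1a2 were named besides, after their values were seen. The list set beside Pdxk is given only in part, since 1 item is not reported here. Alternatives were other scalings, filters, tools and designs, and leaving out libraries.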

Additional observations from a re-analysis of the deposited data

Results flagged for a closer look

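In groups of 6 libraries, 21 tests of the highest or lowest value (11 genes, Dnmt3l and control mice, leaving out Dnmt3l in controls) found 5 that lay apart, by a gap to the next value above Dixon's critical value. Chance sets apart about 1 in 20 groups. Among the Dnmt3l libraries, OE-F 1 lay apart for 3 genes: Dnmt3l at 45.8 CPM, against 20.7 to 27.0 CPM in the other 5, Gatd3a at 33.2 CPM, against 20.6 to 24.1 CPM, and Rrp1 at 176 CPM, against 102 to 120.2 CPM. OE-F 2 lay apart for Icosl at 7.90 CPM, against 3.22 to 4.97 CPM. Among the controls, CON-M 2 lay apart for Trpm2 at 49.4 CPM, against 42.7 to 45.0 CPM.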

How the results depend on the processing

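Of 250 recomputed values of the members averaged over sexes (10 members, 25 alternatives), 226 stayed on their side of the threshold with the same sign, 15 lost the call, 3 gained it (Trappc10, with library totals and in both limma fits) and 6 changed sign (all Icosl). Gatd3a, Rrp1 and Pfkl were called lower under all 25. The cause of the changed calls and signs was not tested. Cstb and Icosl had the fewest counts of the members. Same-numbered libraries showed little likeness (18 correlations, −0.282 to 0.115, 1 of them above 0.1). Single outlying libraries weigh on these correlations, so they cannot settle whether same-numbered libraries were matched. With a replicate block 6 members were lower and 2 higher, as without it.

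Averaged over sexes, members called higher were 1 with library totals, with limma on log2(FPKM + 0.1) and log2(FPKM + 1) and with the largest transcript only. They were 0, with 3 lower, when the 3 control libraries with liver transcripts were left out. All genes called higher were 2329 and 2345 in the 2 limma fits, and 1920 higher and 2439 lower without those controls. Leaving out 1 library at a time gave 2 members higher and 5 to 6 lower, and 3319 to 4744 genes higher and 3713 to 5183 lower. Icosl was at 0.0027 with upper quartile scaling, 0.086 without the 3 controls, 0.21 without these and OE-F 1, 0.48 with its largest transcript, and −0.26 to 0.063 leaving out 1 library.

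In males, members called higher were 1 in both limma fits and with the largest transcript only, and without the 3 controls 0, with 3 lower. Genes called higher were 1995 with library totals, 1595 and 1630 in limma and 1558 without the 3 controls, where 2126 were lower. Leaving out 1 library gave 2 members higher and 4 to 6 lower, and 2198 to 3790 genes higher and 2700 to 4641 lower. Male Icosl was at 0.032 with upper quartile scaling, 0.088 without the 3 controls and 0.088 without OE-F 1 besides, 0.064 with its largest transcript, and −0.16 to 0.088 leaving out 1 library.

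In females, members called lower were 4 with DESeq2, 1 in both limma fits, 0 without the 3 controls, 4 (and 1 higher) when OE-F 1 was left out too (both with 1 control female, assumed to vary like the other groups), and 0 in a fit of females only or with the largest transcript. In the same order genes called higher were 1566 (DESeq2), 94 and 93 (limma with 0.1 and 1), 2, 2232, 1 and 5, and lower 1655, 245 and 282, 0, 2999, 1 and 2. Leaving out 1 library gave 0 to 1 members higher and 0 to 4 lower, and 2 to 3448 genes higher and 5 to 3995 lower. Female Icosl was at 0.083 without the 3 controls, 0.34 without these and OE-F 1, 0.90 with its largest transcript and −0.49 to 0.17 leaving out 1 library, and female Trpm2 at −0.032 with its largest transcript.

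For the male minus female difference DESeq2 called 3 genes higher and 2 lower. Lower calls were 1 without the 3 controls, 5 without these and OE-F 1, and 1 with the largest transcript, and leaving out 1 library gave 0 to 2 higher and 0 to 24 lower, with no member. Transcripts of members called higher were 0 with no filter and 0 to 3 leaving out 1 library, and called lower 3 to 8. The circular RNA of Ube2g2 was at 0.13 on log2(score + 1) and −0.66 to 0.34 leaving out 1 library, never called.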
